A study of Mus musculus with 20 samples.

Results

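The data describe 6 genes for basic leucine zipper (bZIP) transcription factors of the integrated stress response, ATF4, ATF5, DDIT3 (also called CHOP), ATF3, CEBPB and CEBPG, in ribosome profiles of mouse embryonic stem cells. They were taken by name from the 22416 genes of the deposited count table, which writes names in capitals. Mouse spelling is used from here on. In the integrated stress response, kinases phosphorylate the initiation factor eIF2 on its α subunit, which slows general initiation. Upstream reading frames in the leaders of Atf4, Atf5 and Ddit3 mRNAs then let more ribosomes reach the main coding sequence. ATF4 acts with C/EBP partners on genes for amino acid supply, tRNA charging and stress feedback, and ATF3, CHOP and ATF5 belong to the same circuit. C/EBPβ and C/EBPγ are bZIP partners that pair with ATF4, and C/EBPβ also has roles in lineage programmes outside stress.

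The wild-type cells were eIF2α+/+ (WT) and the knock-in cells eIF2αA/A (KI), in which alanine takes the place of the regulatory serine of eIF2α, so that this residue cannot be phosphorylated. For 6 days both genotypes grew in serum-free medium that held KnockOut Serum Replacement and 1000 U/mL of LIF, either together with the MEK inhibitor PD0325901 and the GSK3 inhibitor CHIR99021 (LIF/2i) or without them (LIF). Footprints, the mRNA pieces of 25 to 40 nt that ribosomes shield, came from monosomes after digestion with MNase (3 libraries per group, 12 in all) or RNase I (2 per group, 8 in all). The labels do not say how many clones stood behind a genotype or whether replicates were separate cultures, so p-values measure the spread between libraries, which may be technical.

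With MNase the WT libraries held 2127850 to 5461210 counts and the KI libraries 6560173 to 8894080, without overlap. RNase I libraries held 1965050 to 22916734. In both media the MNase library of KI replicate 1 differed most from its group (chi-square per degree of freedom 24.8 to 29.4, against 2.78 to 11.3 for the other MNase pairs). The RNase I pairs had 26.7 (KI) and 19.3 (WT) in LIF/2i, and 8.73 (KI) and 7.07 (WT) in LIF. This measure grows with depth, and the RNase I libraries were deeper in LIF/2i. They held 16359039 and 4366587 counts (KI) and 22916734 and 8956594 (WT) in LIF/2i. Those in LIF held 2285755 and 1965050 (KI) and 4437767 and 4011036 (WT), so agreement of replicates was not compared between the media. The 12 markers of mouse embryonic stem cells summed to between 5220 and 7150 CPM (the count scaled to a common library total) in every MNase group, and none was at 0. Footprints combine mRNA level and translation, and without RNA libraries these were not separated here, while fewer cells of a type cannot be told apart from less RNA per cell.

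In WT cells, Atf4, Atf5, Cebpb and Atf3 rose when the inhibitors were left out, between 2.04-fold and 5.01-fold with MNase. With MNase, KI cells in LIF held Atf4 at 2.18-fold, Atf5 at 3.85-fold and Ddit3 at 4.23-fold lower footprint levels than WT cells in LIF. With RNase I, 0 of 5 tested members passed the test in that comparison, though all 5 changes were below 0. The difference between the genotypes in the response to the medium passed the test for 0 of 6 members with MNase and 0 of 5 with RNase I. In KI with MNase, Cebpb was the member that rose with the change of medium, by 2.32-fold. Cebpg passed no test in any comparison. Levels are CPM after TMM normalization, changes are log2 fold changes with the standard error (SE) of the fit, and a member was called at an adjusted p under 0.05 from edgeR's quasi-likelihood test, adjusted by Benjamini-Hochberg over all genes tested. Levels were not compared between genes, since no coding lengths were used. Eif2s1, which encodes eIF2α, was higher in KI in LIF/2i by 0.65 with MNase (SE 0.13, edgeR adjusted p = 0.00403) and stood at 0.30 in LIF (SE 0.13, edgeR adjusted p = 0.136); with RNase I the values were 0.43 and 0.31 and not called. A changed codon is not visible in its count.

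**Figure D1:**
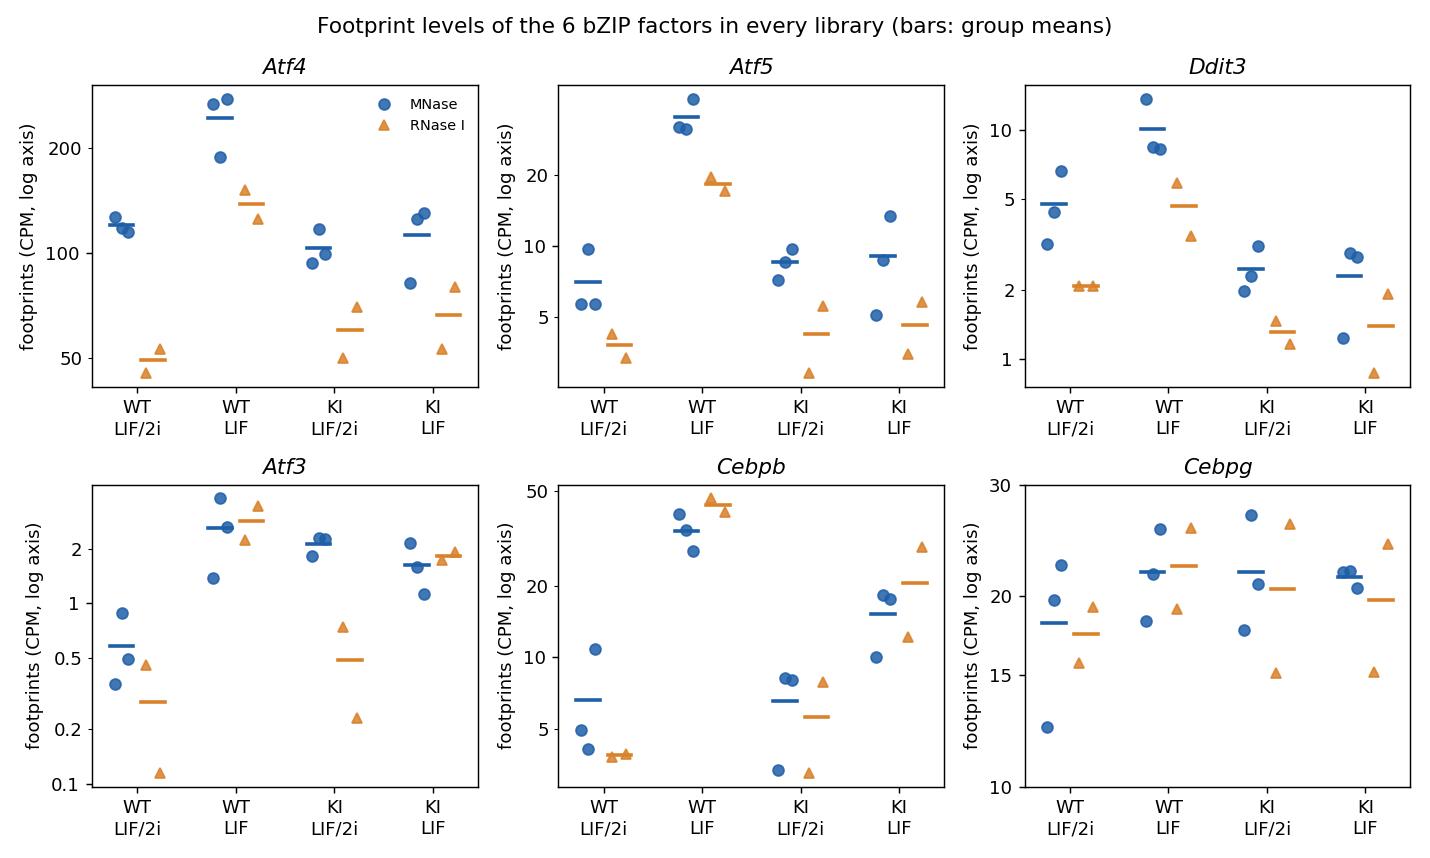
Footprint level (CPM, log axis) of each bZIP factor in each library, by genotype and medium; circles are MNase libraries, triangles RNase I libraries and bars group means. Atf4, Atf5 and Ddit3 are higher in the WT LIF libraries than in every other group of the same nuclease, while the groups of Cebpg overlap.

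Atf4 encodes the central transcription factor of the response. With MNase it stood at 127, 118 and 115 CPM in WT in LIF/2i; the WT LIF libraries had 267, 189 and 277 CPM. KI libraries had 93.3, 117 and 99.1 CPM in LIF/2i, while those in LIF had 81.9, 125 and 130 CPM. The 3 WT LIF libraries lay above the other 9, and the other 3 groups overlapped with their neighbours in the order of means. With RNase I the values were 45.2 and 53.1 CPM in WT in LIF/2i, 152 and 125 CPM in WT in LIF, 49.9 and 69.9 CPM in KI in LIF/2i, and 53 and 79.8 CPM in KI in LIF. Here too both WT LIF libraries were above the other 6. In WT the rise was 1.03 on the log2 scale (SE 0.19, edgeR adjusted p = 0.00215) with MNase and 1.5 (SE 0.25, edgeR adjusted p = 0.00683) with RNase I. The fall in KI against WT in LIF was −1.12 (SE 0.19, edgeR adjusted p = 0.0031) with MNase. With RNase I it was −1.06 (SE 0.26) and not called, with an adjusted p of 0.182 from edgeR.

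Atf5 encodes a relative of ATF4 whose mRNA has a similar leader and which acts on mitochondrial stress genes. Its MNase levels were 5.67, 9.68 and 5.66 CPM in WT in LIF/2i and 31.9, 31.2 and 42 CPM in WT in LIF. The KI libraries had 7.18, 8.58 and 9.74 CPM in LIF/2i, and those in LIF had 5.08, 8.68 and 13.4 CPM. All WT LIF libraries were above the highest library of the other groups, which overlapped among themselves. RNase I gave 4.25 and 3.35 CPM in WT in LIF/2i, 19.6 and 17 CPM in WT in LIF, 2.89 and 5.57 CPM in KI in LIF/2i, and 3.47 and 5.8 CPM in KI in LIF, with the same gap above the other groups. In WT, Atf5 rose by 2.33 on the log2 scale (SE 0.34, edgeR adjusted p = 0.000563) with MNase and 2.25 (SE 0.40, edgeR adjusted p = 0.00911) with RNase I. Against WT in LIF it was lower in KI by −1.94 (SE 0.32, edgeR adjusted p = 0.00293) with MNase. The RNase I value was −1.99 (SE 0.45, edgeR adjusted p = 0.176).

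Ddit3 encodes CHOP, a target of ATF4 that promotes cell death under lasting stress. It was a low count gene, with 9, 15 and 27 counts in the WT LIF/2i libraries with MNase. Its MNase levels were 3.19, 4.4 and 6.64 CPM in WT in LIF/2i, 13.7, 8.41 and 8.26 CPM in WT in LIF, 1.99, 2.3 and 3.11 CPM in KI in LIF/2i, and 1.23, 2.89 and 2.79 CPM in KI in LIF. Both WT groups were above both KI groups, without overlap, and WT LIF was above WT LIF/2i. With RNase I the levels were 2.08 and 2.08 CPM in WT in LIF/2i, 5.85 and 3.44 CPM in WT in LIF, 1.47 and 1.16 CPM in KI in LIF/2i, and 0.868 and 1.93 CPM in KI in LIF. WT was again above KI without overlap, where the KI libraries held 24 and 5 counts in LIF/2i and 2 and 4 in LIF. The gap between the genotypes was narrow, from 3.11 to 3.19 CPM with MNase and from 1.93 to 2.08 CPM with RNase I. In LIF, Ddit3 was lower in KI by −2.08 (SE 0.39, edgeR adjusted p = 0.00547) with MNase and stood at −1.75 (SE 0.63, edgeR adjusted p = 0.294) with RNase I. The step from LIF/2i to LIF in WT, 1.04 (SE 0.39), missed the threshold with MNase (edgeR adjusted p = 0.0774), and so did KI against WT in LIF/2i at −0.96 (SE 0.41, edgeR adjusted p = 0.0997).

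Atf3 encodes an early induced repressor and activator that acts downstream of ATF4. It had 1 to 18 counts per library, and its MNase levels were 0.355, 0.88 and 0.492 CPM in WT in LIF/2i, 1.37, 3.8 and 2.64 CPM in WT in LIF, 1.83, 2.3 and 2.26 CPM in KI in LIF/2i, and 2.15, 1.59 and 1.12 CPM in KI in LIF. The WT LIF/2i group was below all other libraries, and the other 3 groups overlapped. The rise in WT was 2.17 (SE 0.56, edgeR adjusted p = 0.015). KI in LIF/2i was above WT in LIF/2i by 1.84 (SE 0.55, edgeR adjusted p = 0.0264). Without WT LIF/2i replicate 1 these were 1.96 and 1.63, with edgeR adjusted p of 0.0588 and 0.0785, and without WT LIF replicate 2 the first was 1.85 (edgeR adjusted p = 0.0646). Leaving out WT LIF/2i replicate 3 (1.71, edgeR adjusted p = 0.0903), or KI replicate 2 (1.78, 0.0795) or 3 (1.8, 0.0668) of LIF/2i, also ended the second call. The WT LIF/2i libraries in both comparisons held 1, 3 and 2 counts with MNase. With MNase libraries thinned to the smallest total, Atf3 did not pass the filter on low counts, so neither comparison was tested at equal depth. With RNase I, Atf3 did not pass the filter on low counts and was not tested in the main fit. Its levels were 0.452 and 0.115 CPM in WT in LIF/2i, 2.25 and 3.44 CPM in WT in LIF, 0.737 and 0.232 CPM in KI in LIF/2i, and 1.74 and 1.93 CPM in KI in LIF. There the KI LIF/2i libraries overlapped with WT LIF/2i, unlike with MNase. The KI LIF libraries lay above KI LIF/2i without overlap, while with MNase these groups overlapped. With no low-count filter, the RNase I rise with the medium was 3.01 in WT (SE 0.81, edgeR adjusted p = 0.0118). In KI it was 1.59 (SE 0.93, edgeR adjusted p = 0.442).

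Upstream sequences of the 6 factors are shown for Atf3 and Ddit3, since ATF4 and its C/EBP partners bind a shared element. The 250 bases before the annotated start were taken from RefSeq promoters of build GRCm38.p6 and searched on both strands for the C/EBP-ATF element TGATGNAA, the half-site ACGTCA of the cyclic AMP response element, and the C/EBP palindrome TTGCGCAA. All 6 members matched the table. Atf3 alone among them held a match, to the first 2 of these motifs. Its 250 bases at chr1:191183334-191183583 on the minus strand are shown with the matches in capitals, the element lying from 110 to 103 bases before the start (on the opposite strand) and the half-site from 8 to 3 bases before it. Ddit3, the member with the largest KI against WT change in LIF with MNase, at chr10:127290543-127290792 on the plus strand, is shown beside it and held none of these letters in this window.
Atf3: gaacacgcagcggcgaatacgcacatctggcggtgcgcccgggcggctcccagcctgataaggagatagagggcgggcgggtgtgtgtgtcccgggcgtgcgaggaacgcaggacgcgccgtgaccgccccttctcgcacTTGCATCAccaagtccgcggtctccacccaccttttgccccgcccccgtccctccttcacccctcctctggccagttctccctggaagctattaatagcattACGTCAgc
Ddit3: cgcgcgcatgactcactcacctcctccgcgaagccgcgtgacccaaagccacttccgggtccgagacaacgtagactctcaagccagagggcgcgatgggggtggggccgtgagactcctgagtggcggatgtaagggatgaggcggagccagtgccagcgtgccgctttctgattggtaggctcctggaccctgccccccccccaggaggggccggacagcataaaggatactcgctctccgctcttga

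Cebpb encodes C/EBPβ, a partner of ATF4 and CHOP. Its MNase levels were 4.96, 4.11 and 10.8 CPM in WT in LIF/2i, 40.2, 34.2 and 28 CPM in WT in LIF, 3.36, 8.19 and 8.05 CPM in KI in LIF/2i, and 10, 18.2 and 17.5 CPM in KI in LIF. WT LIF was above all other groups, and KI LIF lay between WT LIF and KI LIF/2i without overlapping with either, though it overlapped with WT LIF/2i. RNase I gave 3.8 and 3.93 CPM in WT in LIF/2i, 46.6 and 40.8 CPM in WT in LIF, 3.26 and 7.9 CPM in KI in LIF/2i, and 12.2 and 29 CPM in KI in LIF. WT LIF was again highest, followed by KI LIF, without overlap, while both LIF/2i groups overlapped. The rise with the change of medium in WT was 2.32 (SE 0.40, edgeR adjusted p = 0.00165) with MNase and 3.5 (SE 0.49, edgeR adjusted p = 0.00373) with RNase I. In KI it was 1.22 (SE 0.38, edgeR adjusted p = 0.0387) with MNase and 1.99 (SE 0.51, edgeR adjusted p = 0.0719) with RNase I. The KI call with MNase was lost without any of 7 single libraries: WT LIF replicates 1 and 3, KI LIF replicates 2 and 3, and KI LIF/2i replicates 1, 2 and 3, with values from 0.91 to 1.41. KI against WT in LIF was −1.15 (SE 0.36) and narrowly missed the threshold (edgeR adjusted p = 0.0532). It was called under 7 alternatives, among them DESeq2 (−1.15, adjusted p = 0.0225), both nucleases in one fit (−1.13, edgeR adjusted p = 0.0142) and without KI replicate 1 of either medium (−0.91, edgeR adjusted p = 0.0269).

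Cebpg encodes C/EBPγ, a small bZIP protein that pairs with ATF4 and carries no activation domain of its own. With MNase it ran from 12.4 to 22.4 CPM in WT in LIF/2i, 18.3 to 25.5 CPM in WT in LIF, 17.7 to 26.9 CPM in KI in LIF/2i, and 20.6 to 21.9 CPM in KI in LIF. With RNase I it ran from 15.1 to 26 CPM over all 8 libraries. All neighbouring groups overlapped. The change in WT was 0.27 with a 95% confidence interval from −0.25 to 0.79, and KI against WT in LIF was −0.04 (interval −0.54 to 0.46), so that changes of the size seen for Atf5 lay outside both intervals.

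**Figure D2:**
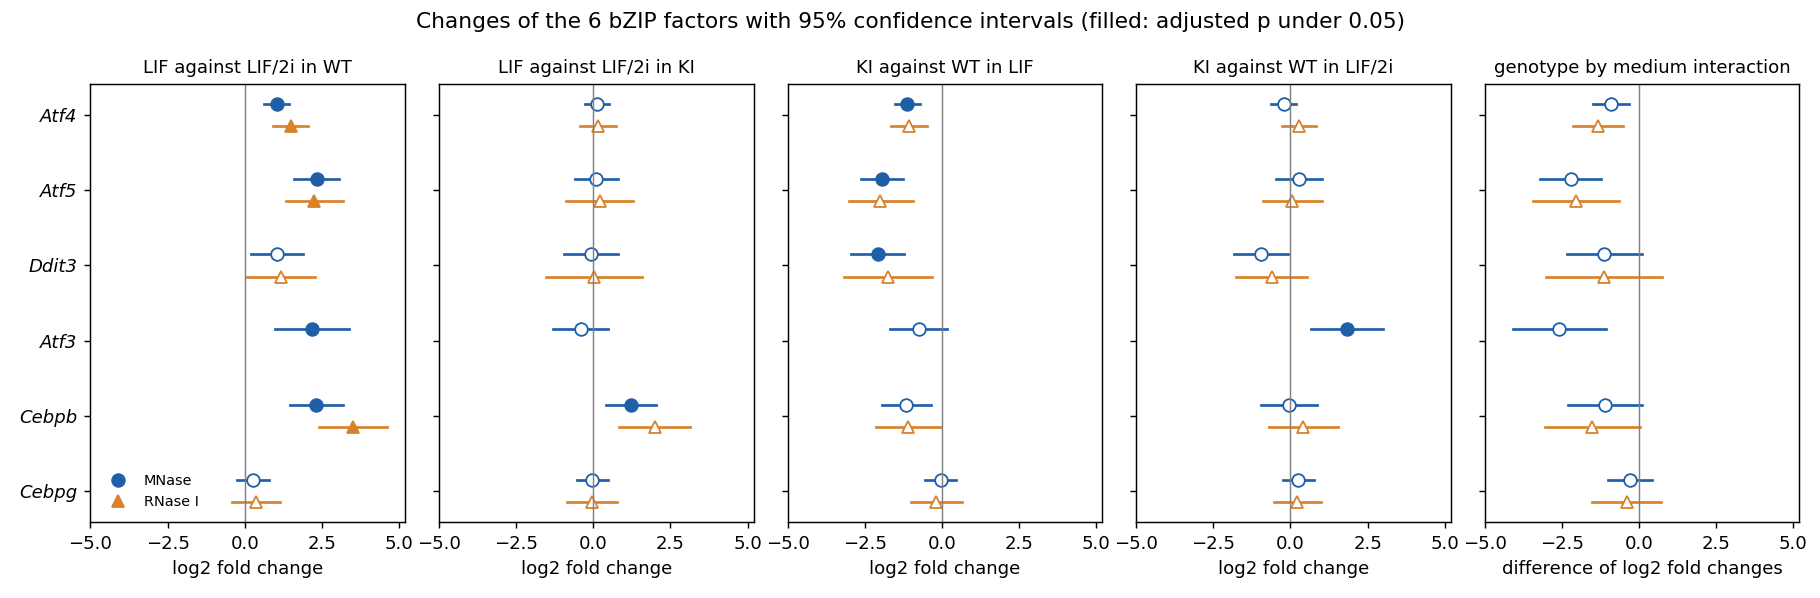
Log2 fold change (x axis) of each bZIP factor in the 4 comparisons, and the difference of log2 fold changes for the interaction, with 95% confidence intervals; circles are MNase, triangles RNase I, and filled symbols have adjusted p under 0.05. Both nucleases place Atf4 and Atf5 above 0 for LIF against LIF/2i in WT and below 0 for KI against WT in LIF, and Atf3 has no RNase I value.

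Removal of the inhibitors in WT raised 4 of 6 members with MNase (Atf4, Atf5, Atf3 and Cebpb), where 9.99% of all 12806 tested genes were called higher and 11% lower. The median change of the 6 was 1.60. For 5 of the 6 the WT LIF libraries lay above the WT LIF/2i libraries without overlap, as did 21.4% of all genes tested. With RNase I, 3 of 5 tested members rose (Atf4, Atf5 and Cebpb), against 7.17% of 12095 genes called higher, and 4 of 5 had WT LIF above WT LIF/2i without overlap, against 33% of all genes. Leaving out WT LIF/2i replicate 1 with RNase I ended all 3 calls (Atf4 1.37 with edgeR adjusted p 0.0783, Atf5 2.43 with 0.0718, Cebpb 3.46 with 0.0502), and leaving out WT LIF replicate 1 ended those of Atf4 (1.34, 0.0526) and Atf5 (2.13, 0.0626). The Atf5 call was also lost without WT LIF replicate 2 (2.33, 0.0567), without WT LIF/2i replicate 2 (2.06, 0.0729) and with thinned libraries (1.79, 0.076).

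In KI the same change of medium raised 1 of 6 members, Cebpb, with MNase, where 8.37% of genes were called higher and 10.3% lower. The other 5 lay between −0.41 (Atf3, SE 0.41) and 0.12 (Atf4, SE 0.19). For Atf5 the KI change was 0.10 with a 95% confidence interval from −0.58 to 0.79, which does not reach the 2.33 of WT. With RNase I edgeR called 0 of 5 members in KI, 1 at an unadjusted p under 0.05 and 1 with DESeq2 (Cebpb in both cases), beside 3.46% of genes called in either direction.

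KI cells in LIF had lower levels than WT cells in LIF for 3 of 6 members with MNase (Atf4, Atf5 and Ddit3), where 6.05% of genes were called lower and 7.36% higher. All 6 log2 fold changes were below 0, with a median of −1.14, and 4 of 6 members were lower without overlap of the libraries, as were 17.5% of genes. The 3 falls were as follows with libraries thinned to the smallest total: Atf4 −1.12 (edgeR adjusted p = 0.00187), Atf5 −1.77 (0.00919) and Ddit3 −1.87 (0.0218). Without KI replicate 1 in both media they were −0.94 (edgeR adjusted p = 0.000977), −1.67 (0.000696) and −1.78 (0.00369). With RNase I edgeR called 0 of 5 members, 4 at an unadjusted p under 0.05 and 2 with DESeq2 (Atf4 at −1.05 and Atf5 at −1.98), where 0.116% of all genes were called in either direction. Atf4, Atf5, Ddit3 and Cebpb were nonetheless lower in both KI LIF libraries than in both WT LIF libraries with RNase I, as were 24.3% of genes.

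In LIF/2i 1 of 6 members was called higher in KI with MNase, Atf3, beside 13.8% of genes higher and 11.5% lower. DESeq2 called 0 of the 6 (Atf3 1.86, adjusted p = 0.0583). Atf4 stood at −0.21 (95% confidence interval −0.62 to 0.19) and Atf5 at 0.28 (−0.46 to 1.02), so that falls as large as those in LIF lay outside both intervals. Ddit3 stood lower in KI at −0.96 (−1.84 to −0.08), not called in the main fit (edgeR adjusted p = 0.0997). With both nucleases in one fit it was called lower (−0.82, edgeR adjusted p = 0.0412). Its RNase I value was −0.61 (SE 0.50, edgeR adjusted p = 0.65). With RNase I edgeR called 0 of 5 members, 0 at an unadjusted p under 0.05 and 0 with DESeq2, beside 0.232% of genes called in either direction.

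The difference of the genotypes' responses to the medium was tested as an interaction. With MNase it was negative for all 6 members, with Atf3 at −2.58 (SE 0.70), Atf5 at −2.22 (SE 0.47), Ddit3 at −1.12 (SE 0.56), Cebpb at −1.10 (SE 0.55), Atf4 at −0.91 (SE 0.26) and Cebpg at −0.30 (SE 0.33). edgeR called 0 of 6, 3 at an unadjusted p under 0.05 (Atf5, Atf3 and Atf4), and DESeq2 called 1 (Atf5), where 0.336% of all genes were called in either direction. Atf5 came nearest to the threshold, with an edgeR adjusted p of 0.0642 that ranged from 0.00193 to 0.179 over the alternatives. With RNase I edgeR called 0 of 5, 2 at an unadjusted p under 0.05 (Atf4 and Atf5) and 0 with DESeq2, and 0% of all genes were called.

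Levels of the same 3 members that were lower in KI in LIF also differed between the RNase I and MNase libraries, which were separate sets, so that the nuclease cannot be told apart from other differences in their preparation. Over replicates 1 and 2 of all groups (16 libraries), RNase I gave lower values than MNase for Atf4 (log2 −0.83, SE 0.13, edgeR adjusted p = 0.000498), Atf5 (−0.80, SE 0.20, edgeR adjusted p = 0.00936) and Ddit3 (−0.79, SE 0.27, edgeR adjusted p = 0.0425), while 15.3% of genes were called lower. The call of Ddit3 was lost with DESeq2 (−0.79, adjusted p = 0.0589), with no low-count filter (−0.77, edgeR adjusted p = 0.0683) and without 11 of the 16 libraries in turn, with values from −0.62 to −0.86. The KI against WT difference in LIF was not called as different between the nucleases for any of the 6 (edgeR adjusted p = 1, 0 at an unadjusted p under 0.05, 0 with DESeq2, and 0% of genes called). Its 95% confidence interval was −0.73 to 0.91 for Atf4, −1.05 to 1.49 for Atf5 and −1.14 to 2.46 for Ddit3.

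The known targets of the response were followed in a list of 51 genes by role, none of them among the 6 factors, of which 49 were tested with MNase. The list was chosen with earlier results of these data known, so that its shares may not be independent of them. In WT, 31 rose and 2 fell with removal of the inhibitors (median 0.87, against 0.01 over all genes tested), where 9.99% of all genes were called higher and 11% lower. With RNase I 19 of 47 rose and 1 fell (median 0.72), beside 7.17% and 6.47% of genes. In KI 4 of 49 rose and 5 fell with MNase (median 0, over all genes 0), near the 8.37% and 10.3% of all genes, and 1 of 47 rose and 2 fell with RNase I, beside 3.46% in either direction. Those that rose in WT with MNase were 7 of 11 genes of amino acid synthesis, 6 of 8 amino acid transporters, 10 of 13 genes of tRNA charging, and 8 of 17 genes of stress and feedback. Psat1, an enzyme of serine synthesis, rose by 1.71 (SE 0.14, edgeR adjusted p = 1.61e-05), the seryl-tRNA synthetase Sars by 1.26 (SE 0.13), and the pseudokinase Trib3, which restrains ATF4, by 2.59 (SE 0.31). The 2 that fell were Asns, the asparagine synthetase, by 0.59 (SE 0.19), and the disulfide oxidase gene Ero1l by 1.10 (SE 0.23).

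**Figure D3:**
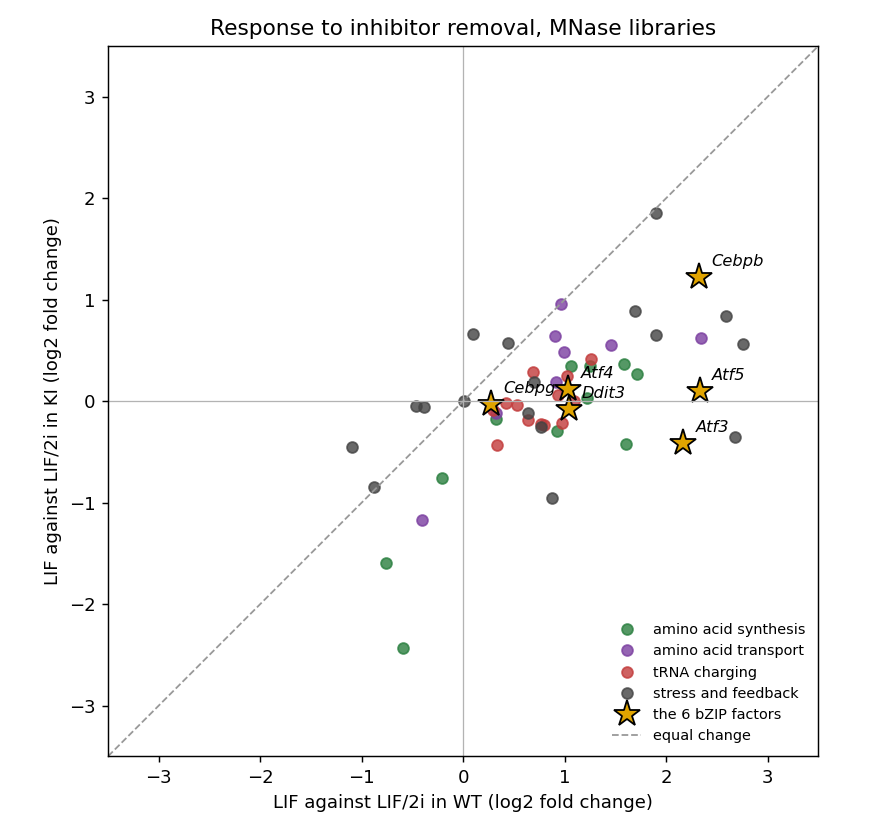
Log2 fold change for LIF against LIF/2i in WT (x axis) and in KI (y axis) with MNase, for 49 integrated stress response targets by role and the 6 bZIP factors (stars); the dashed line marks equal change. Atf4, Atf5, Ddit3 and Atf3 lie between −0.41 and 0.12 on the KI axis, and Cebpb lies at 2.32 in WT and 1.22 in KI.

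In LIF, 25 of the 49 targets were lower in KI than in WT with MNase, beside 6.05% of all genes (33 at an unadjusted p under 0.05, 27 with DESeq2) and edgeR called 0 higher (1 at an unadjusted p under 0.05, 0 with DESeq2), with a median of −0.81 against −0.01 over all genes. With RNase I edgeR called 0 of 47 targets lower (29 at an unadjusted p under 0.05, 15 with DESeq2; median −0.82), beside 0.116% of genes in either direction. By role the 25 were 11 of 17 genes of stress and feedback (median −1.54), 6 of 11 of amino acid synthesis (median −1.16), 4 of 8 transporters (median −0.56) and 4 of 13 of tRNA charging (median −0.07). The largest values were those of Chac1, which degrades glutathione, at −3.41 (SE 0.45), of the lipoprotein receptor gene Vldlr at −3.30 (SE 0.53) and of the stress protein gene Nupr1 at −2.85 (SE 0.41). In LIF/2i the same list had 12 higher and 7 lower in KI with MNase (median 0.05, over all genes 0.01), beside 13.8% and 11.5% of all genes, so that the lower count was near that share. In RNase I libraries edgeR called 0 of 47 (4 higher and 4 lower at an unadjusted p under 0.05, 0 and 1 with DESeq2), beside 0.232% of genes. With MNase 9 of 13 genes of tRNA charging were higher (median 0.66), among them Mars at 0.88 (SE 0.14) and Tars at 0.68 (SE 0.12), while 5 of 17 genes of stress and feedback were lower (median −0.76), among them the secreted stress factor Gdf15 at −1.60 (SE 0.30). With RNase I, 1 of 13 genes of tRNA charging was higher at an unadjusted p under 0.05 by edgeR and 0 with DESeq2 (median 0.14). Of 15 genes of stress and feedback tested there, 2 were lower at an unadjusted p under 0.05 by edgeR and 1 with DESeq2 (median −0.47). The members Atf4 and Atf5 were not called in LIF/2i.

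**Figure D4:**
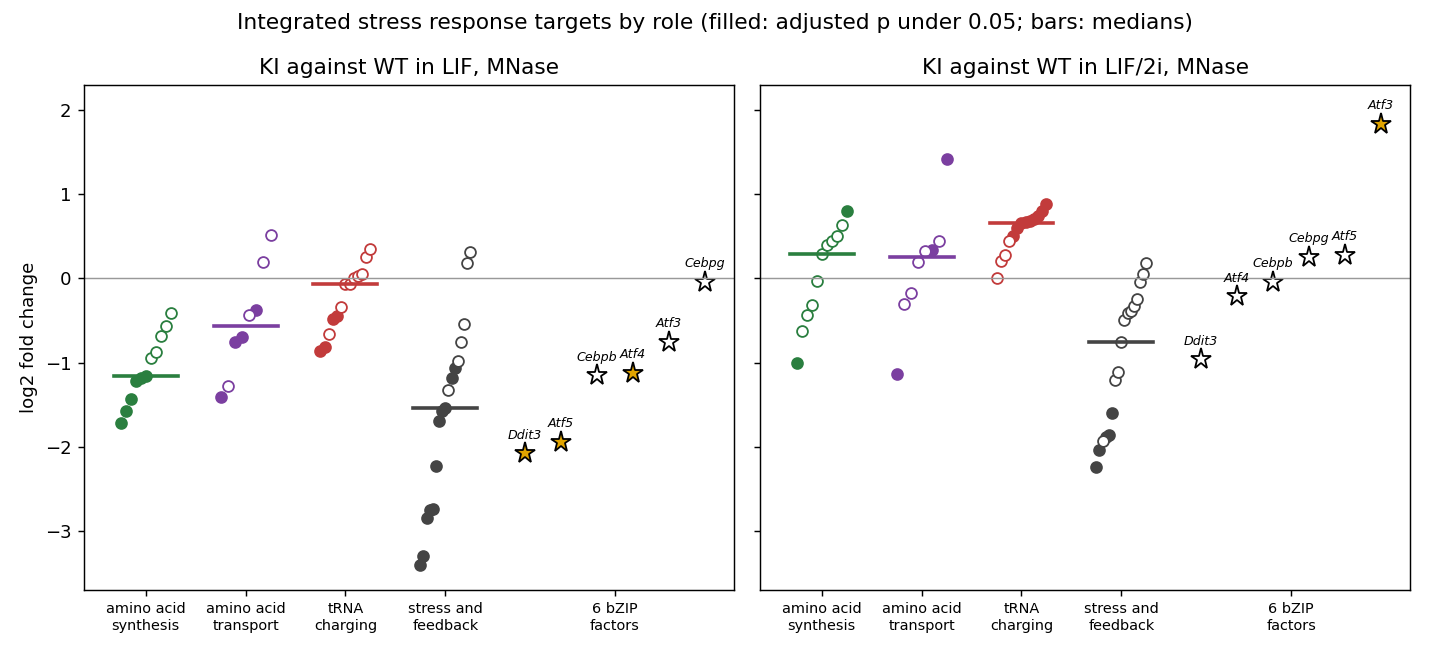
Log2 fold change (y axis) of KI against WT in LIF (left) and in LIF/2i (right) with MNase, for targets by role (circles, bars are medians) and the 6 bZIP factors (stars); filled symbols have adjusted p under 0.05. The medians in LIF run from −0.07 for tRNA charging to −1.54 for stress and feedback, and in LIF/2i from 0.66 to −0.76.

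The interaction of genotype and medium was called lower for 6 of 49 targets with MNase (16 with DESeq2), beside 0.336% of all genes in either direction. They were the genes of amino acid synthesis Psat1 and Asns and the tRNA synthetase genes Nars, Cars, Aars and Yars, with a median of −0.77 over the list against −0.02 over all genes. In RNase I libraries 0 of 47 were called by edgeR (18 at an unadjusted p under 0.05, 2 with DESeq2). Asns fell with the medium in both genotypes, by 0.59 in WT and by 2.43 (SE 0.20, edgeR adjusted p = 2.64e-05) in KI. The count of 6 moved to 18 without KI replicate 1 in both media. The count was 1 without WT LIF replicate 1, 2 without WT LIF replicate 3 and 2 without WT LIF/2i replicate 1.

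The same windows were searched for the targets. Of the 51, 41 had a promoter in the table, and 12 of these (29.3%) held the C/EBP-ATF element, as did 1056 of all 27025 genes with a promoter (3.91%). The half-site was in 5 of 41 (12.2%) and 7.29% of genes, and the palindrome in 0 of 41 and 0.19% of genes. Among targets with the element, 8 of 10 tested were lower in KI in LIF (median −1.57), and among those without it 12 of 29 (median −0.76). For removal of the inhibitors in WT the counts of higher genes were 7 of 10 (median 0.90) and 17 of 29 (median 0.77). The difference between these groups of targets was not tested, and a match is no measure of binding. The element, in capitals, is given with its flanks for 5 targets that were lower in KI in LIF, Chac1 (−3.41), Vldlr (−3.30), Nupr1 (−2.85), the bZIP gene Jdp2 (−2.23) and the proline synthesis gene Pycr1 (−1.72), at chr2:119351037-119351068, chr19:27216808-27216839, chr7:126625561-126625592, chr12:85599371-85599402 and chr11:120643832-120643863. Nupr1 and Pycr1 lie on the minus strand and the other 3 on the plus strand.
Chac1: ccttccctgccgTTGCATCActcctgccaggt
Vldlr: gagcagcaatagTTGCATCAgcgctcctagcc
Nupr1: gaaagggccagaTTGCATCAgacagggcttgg
Jdp2: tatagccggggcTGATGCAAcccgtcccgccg
Pycr1: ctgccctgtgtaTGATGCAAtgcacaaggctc

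Atf3, Chac1, Vldlr and Nupr1 share the 8 letters TTGCATCA, the same element read from the other strand as in Jdp2 and Pycr1.

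Of 47 other bZIP genes 37 were tested, and in LIF 3 were lower in KI with MNase (median −0.26), a share near the 6.05% of all genes. They were Jdp2 (−2.23, SE 0.38), Xbp1, a factor of the unfolded protein response (−0.95, SE 0.17), and Creb3l2 (−1.22, SE 0.37, edgeR adjusted p = 0.0468), whose call was lost in 10 of the alternatives. In WT, removal of the inhibitors was followed by 5 higher and 5 lower of the 37 (median 0.01), near the 9.99% and 11% of all genes, with Cebpd, which encodes another C/EBP factor, at 1.70 (SE 0.46). Among 10 other genes whose mRNAs carry upstream reading frames, 1 was lower in KI in LIF (6.05% of all genes), Slc35a4 at −1.23 (SE 0.37, edgeR adjusted p = 0.042), whose call was lost in 12 of 19 alternatives, and 1 fell with the medium in WT (11% of all genes), Sat1 at −1.88 (SE 0.39). Of 20 genes for eIF2, eIF2B and the kinases and phosphatases of eIF2α, 2 were higher in KI in LIF with MNase (Eif2b3 at 0.61 and Nck1 at 0.56, with calls lost in 4 and 8 of the alternatives), beside 7.36% of all genes. In LIF/2i 6 were higher with MNase, beside 13.8%, and the kinase gene Eif2ak3 was lower at −1.18 (SE 0.28). Among the 6, the calls of Nck1 and Oma1 were lost in 4 and 6 of the alternatives. For the same 20 genes in LIF/2i, edgeR called 0 with RNase I (median 0.10), beside 0.232% of genes in either direction. At an unadjusted p under 0.05 by edgeR 0 were higher and 1 was lower there, and DESeq2 called 0. Of 9 genes for mitochondrial chaperones and proteases, a programme tied to ATF5, 1 was higher and 1 lower in KI in LIF (Yme1l1 at 0.78 and Hspe1 at −0.93, the latter lost in 11 alternatives), beside 7.36% and 6.05% of all genes. In LIF/2i 4 of the 9 were higher in KI with MNase and none lower by edgeR (0 at an unadjusted p under 0.05, 0 with DESeq2), with Yme1l1 at 0.84 (SE 0.11), beside 13.8% of all genes higher. Among the 4, the calls of Clpx and Hspd1 were lost in 12 and 6 of the alternatives. With RNase I edgeR called 0 of the 9 in LIF/2i (0 at an unadjusted p under 0.05, 0 with DESeq2; median 0.01), beside 0.232% of genes in either direction.

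Markers of other cell types also differed between the groups. The summed level of 13 markers of primitive and extraembryonic endoderm was 612 to 853 CPM in WT in LIF with MNase, against 352 to 424 CPM in KI in LIF, 134 to 323 CPM in WT in LIF/2i and 161 to 174 CPM in KI in LIF/2i. For 11 trophoblast markers it was 566 to 784, 330 to 344, 213 to 274 and 112 to 274 CPM in the same order, and for 7 markers of mesoderm and primitive streak 32 to 50.2, 16.5 to 19.9, 14.4 to 22.1 and 10.3 to 28.2 CPM. Afp was at 0 in KI in LIF and Mesp1 at 0 in both LIF/2i groups, and the other markers of these lists were detected in every group. Like Atf4, Atf5, Ddit3 and Cebpb, all 3 sums were highest in the WT LIF libraries without overlap. The sum of the 10 markers of fibroblasts or feeder cells went the other way, with 1310 to 1720 CPM over both LIF groups and 3470 to 4540 CPM over both LIF/2i groups. Dcn and Lum did not follow this sum. They were at 0 in both LIF/2i groups, while no marker of this list was at 0 in either LIF group. The 6 neuroectoderm markers summed to 71.2 to 89.8 CPM in WT in LIF and 123 to 130 CPM in KI in LIF. The part of these markers in the levels of the 6 factors was not tested.

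Among genes of at least 5 CPM, those whose log2 level was most like that of a member over the 12 MNase libraries were named by Pearson's r, as a description over libraries that fall into 4 groups and share their nuclease. Nupr1 was nearest to Atf4 (0.953) and to Atf5 (0.94), and Zfp598 was among the 3 nearest to both (0.945 and 0.933). Their sizes of change differed, which r does not measure. With the medium in WT, Nupr1 changed by 2.68 (SE 0.43) and Zfp598 by 0.18 (SE 0.10). For KI against WT in LIF the values were −2.85 (SE 0.41) and −0.19 (SE 0.10). Zfp598 was called in none of the comparisons with MNase. Trp53inp2 was nearest to Ddit3 (0.944), Stx2 to Cebpb (0.977), Dynll2 and Senp8 to Atf3 (0.918 each) and Dync2li1 to Cebpg (0.831).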

How the data were processed

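The submitters' processing notes name Bowtie 1.3.0, UMI-tools 1.0.1 and cutadapt 3.4; the roles of these tools and the genome build are not given in the sources used here. The authors deposited raw counts of footprints over coding sequences, for 1 transcript per gene, in 22416 genes and 20 libraries. From these counts edgeR 4.0.16 (R 4.3.3, limma 3.58.1) tested the 12 MNase and 8 RNase I libraries in separate fits, with filterByExpr, TMM and a mean per group, leaving 12806 and 12095 genes; a fit of 16 libraries compared the nucleases (12732 genes). All tests were two-sided. DESeq2 1.42.0 was an alternative. The scripts were tested on simulated counts. Members and lists were chosen with earlier results of these data known. Named genes are the 6 members, Eif2s1, up to 6 called genes per list and comparison with the smallest p, any needed to describe a list, and the 3 genes of at least 5 CPM nearest to each member by r (log2 of CPM + 0.5). Depth is given in the report as ranges. Replicate numbers were not taken to pair libraries: across media in KI (MNase) the deviations of same numbers correlated at 0.567, 0.318 and 0.398, but those of replicates 2 and 3 with each other at 0.375 and 0.412, which sets only replicate 1 apart.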

Additional observations from a re-analysis of the deposited data

Results flagged for a closer look

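The response to the medium differed between the genotypes, by edgeR's interaction test with MNase, for 6 targets of the 6 factors: Psat1 (−1.45, SE 0.20, edgeR adjusted p = 0.00858), Asns (−1.84, SE 0.27, 0.0122), Nars (−1.09, SE 0.16, 0.0128), Cars (−1.19, SE 0.18, 0.013), Aars (−1.04, SE 0.17, 0.0209) and Yars (−1, SE 0.17, 0.023). All but Psat1 lost the call without WT LIF replicate 1. Without WT LIF replicate 3 those of Nars, Cars, Aars and Yars were lost, and without WT LIF/2i replicate 1 those of Asns, Cars, Aars and Yars. Aars and Yars also lost theirs without KI LIF replicate 2, KI LIF/2i replicate 2 or 3, or WT LIF/2i replicate 3.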

How the results depend on the processing

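The 15 calls of members had 271 values under the alternatives, of which 236 kept direction and call, 35 lost the call and 0 changed sign. The calls of Atf4, Atf5 and Ddit3 for KI against WT in LIF, and of Atf4, Atf5 and Cebpb for the medium in WT, held with MNase under every alternative run. These counts of members called changed by over 1.5 times; apart from fewer libraries or genes entering a fit, the cause was not tested. The interaction with MNase went from 0 to 2 with both nucleases in one fit, and to 1 with DESeq2, with no low-count filter, with the replicate block and without KI replicate 1 in both media (0 to 1 with a library left out). KI against WT in LIF with RNase I went from 0 to 2 with DESeq2 and with no filter. KI against WT in LIF/2i with MNase went from 1 to 2 with both nucleases, where Ddit3 was called lower (−0.82) beside Atf3. It went to 0 with DESeq2 and with thinned libraries, where Atf3 was not tested (0 to 1 with a library left out). LIF against LIF/2i in KI went from 0 to 1 with RNase I under DESeq2, no filter and without KI replicate 1 (0 to 1 with a library left out), and with MNase from 1 to between 0 and 1. In WT with RNase I it ran from 0 to 4 around 3. Smaller moves were those of KI against WT in LIF (3 to 4) and of LIF against LIF/2i in WT (3 to 5 around 4) with MNase. Targets lower in the interaction, alternatives chosen after seeing the data, numbered 17 with both nucleases, 16 with DESeq2 and 18 without KI replicate 1, and 1 to 9 with a library left out. With the replicate block, though the numbers did not pair the libraries, Cebpb for KI against WT in LIF (−1.21) and Atf5 in the interaction (−2.27) were called, and no other call of a member changed.

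Sign changes occurred only among the 52 member values that were not called, in 58 of 871 alternatives, with adjusted p of at least 0.423. For LIF against LIF/2i in KI they were Atf3 with both nucleases (0.17), Cebpg with library totals (0.08 with MNase, 0.02 with RNase I), Ddit3 with totals (0.03) and without KI replicate 1 (0.08), and Ddit3 with RNase I and no filter (−0.04). For KI against WT in LIF/2i they were Atf5 with RNase I thinned (−0.76) and Cebpb with MNase, both nucleases (0.17) or without KI replicate 1 (0.24). Cebpg for KI against WT in LIF was 0 thinned (MNase) and 0.12 without KI replicate 1 (RNase I), and between nucleases 0 with totals. With 1 library left out, the nuclease difference of KI against WT in LIF ran from −1.05 to 0.4 (Atf3), −0.23 to 0.44 (Atf4), −0.18 to 0.67 (Atf5), −0.44 to 0.82 (Cebpb) and −0.66 to 0.01 (Cebpg). LIF against LIF/2i in KI ran from −0.3 to 0.38 (Atf5), −0.16 to 0.15 (Cebpg) and −0.26 to 0.2 (Ddit3) with MNase, and from −0.15 to 0.41 (Atf4), −0.26 to 0.65 (Atf5), −0.39 to 0.36 (Cebpg) and −0.62 to 0.49 (Ddit3) with RNase I. KI against WT in LIF/2i ran from −0.3 to 0.54 (Cebpb, MNase), and with RNase I from −0.41 to 0.49 (Atf5), −0.24 to 1 (Cebpb) and −0.2 to 0.55 (Cebpg). In LIF, Cebpg ran from −0.13 to 0.12 (MNase) and −0.54 to 0.11 (RNase I), and its RNase I interaction from −0.73 to 0.01. RNase I against MNase ran from −0.07 to 0.33 (Cebpb) and −0.08 to 0.14 (Cebpg).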
